A study of Mus musculus with 7 samples.

Results

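The 10 genes described here (Ttr, Folr1, Kl, Clic6, Kcnj13, Aqp1, Otx2, Sostdc1, Prlr and Slc4a5) are genes of the choroid plexus epithelium, taken by gene symbol from a table of 35976 symbols. All 10 were in the table, and all 10 were among the 14412 genes kept by a filter on low counts. The choroid plexus hangs in the brain's ventricles, not in the amygdala, and its transcripts in these libraries are described here as carry-over of choroid tissue, which the counts alone cannot tell apart from expression by other cells. The libraries were RNA-seq of cells from the amygdala of male C57BL/6J mice, isolated as neurons with a magnetic kit after papain digestion. In 4 libraries (sgRosa, the control) the mice had received an adeno-associated virus (AAV) with a guide RNA against the Rosa locus, and in 3 libraries (sgNr2f2) one with a guide against Nr2f2, a nuclear receptor gene. Cas9 was driven in both groups by the hSyn promoter, which is active in neurons. Both groups had more than 2 weeks of expression, restraint in tubes on 7 days, then fear conditioning (1 day) and extinction training (3 days), and no group was left unstressed. The labels give neither the age of the mice nor whether a library came from 1 animal or a pool. P-values therefore measure the spread between these libraries, which may be technical in part.

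The choroid plexus is a sheet of epithelial cells around a vascular and fibroblast-rich core. It makes the cerebrospinal fluid by moving ions and water from blood to ventricle, and it secretes carrier proteins into that fluid. Its most abundant transcript is commonly Ttr, which encodes transthyretin, a carrier of thyroid hormone and of retinol-binding protein. The homeobox transcription factor Otx2 is needed for the development and upkeep of this epithelium.

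Total counts ran from 6266897 (sgRosa replicate 4) to 20928677 (sgNr2f2 replicate 3). sgRosa replicate 4 stood apart: 7 erythroid genes summed to 31558 CPM there (CPM, the usual depth-scaled count, taken over TMM-adjusted library sizes) and to between 1051 and 3064 CPM in the other 6 libraries. Neuron markers were present in every library, with all 10 detected, but their sum was only 337 to 1340 CPM, against 22924 to 407530 CPM for 10 oligodendrocyte markers. The targeted gene Nr2f2 had 96 to 422 counts in sgRosa and 191 to 214 in sgNr2f2, with a log2 fold change of -0.36 (SE 0.37, edgeR adjusted p = 0.905). The targeted gene thus gave no check of the labels.

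RefSeq promoters (GRCm38.p6, 250 bases before to 50 bases after a start) were at hand for 6 of the 10 genes: Kcnj13, Kl, Aqp1, Otx2, Prlr and Slc4a5. The 5 printed below are those of Kcnj13, the gene whose profile was nearest to that of Ttr, of Kl, Otx2 and Slc4a5, which also peaked in the Ttr-rich libraries, and of Prlr, which did not. Otx2 and related factors are known to bind DNA with the core TAATC, most strongly as TAATCC, so both strings were searched on both strands, the shorter being contained in the longer. Capitals mark the matches, which read GATTA or GGATTA where they lie on the other strand.
Kcnj13, chr1:87394680-87394979, minus strand: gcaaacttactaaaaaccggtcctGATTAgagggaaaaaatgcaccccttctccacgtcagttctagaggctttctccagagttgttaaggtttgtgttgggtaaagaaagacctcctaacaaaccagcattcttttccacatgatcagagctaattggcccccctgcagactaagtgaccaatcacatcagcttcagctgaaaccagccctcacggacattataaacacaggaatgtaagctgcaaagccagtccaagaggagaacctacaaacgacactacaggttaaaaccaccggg
Kl, chr5:150952357-150952656, plus strand: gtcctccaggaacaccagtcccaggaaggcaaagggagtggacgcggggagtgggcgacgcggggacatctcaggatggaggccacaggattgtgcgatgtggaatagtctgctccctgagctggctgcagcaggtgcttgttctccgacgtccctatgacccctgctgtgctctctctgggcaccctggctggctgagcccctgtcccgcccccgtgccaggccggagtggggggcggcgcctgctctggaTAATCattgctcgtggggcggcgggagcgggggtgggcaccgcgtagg
Otx2 (start 3 of 4), chr14:48665060-48665359, minus strand: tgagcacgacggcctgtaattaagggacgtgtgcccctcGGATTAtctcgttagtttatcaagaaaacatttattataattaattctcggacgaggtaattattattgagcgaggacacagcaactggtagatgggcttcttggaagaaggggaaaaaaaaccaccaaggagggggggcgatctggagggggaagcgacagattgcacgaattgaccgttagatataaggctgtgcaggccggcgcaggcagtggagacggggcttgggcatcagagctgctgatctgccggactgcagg
Slc4a5, chr6:83237125-83237424, plus strand: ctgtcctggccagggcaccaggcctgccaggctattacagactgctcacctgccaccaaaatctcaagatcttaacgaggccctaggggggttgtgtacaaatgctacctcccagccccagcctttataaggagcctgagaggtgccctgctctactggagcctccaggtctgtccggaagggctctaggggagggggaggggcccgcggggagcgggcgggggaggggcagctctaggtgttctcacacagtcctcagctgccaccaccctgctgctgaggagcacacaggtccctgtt
Prlr (start 1 of 3), chr15:10176988-10177287, plus strand: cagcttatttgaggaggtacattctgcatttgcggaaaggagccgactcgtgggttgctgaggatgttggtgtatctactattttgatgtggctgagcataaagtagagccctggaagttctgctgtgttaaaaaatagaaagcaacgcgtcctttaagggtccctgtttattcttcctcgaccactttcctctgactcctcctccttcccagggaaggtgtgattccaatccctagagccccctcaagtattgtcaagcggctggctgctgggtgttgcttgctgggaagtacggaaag
TAATC was in a window of 3 of the 6 genes, Kcnj13, Kl and Otx2, and in 24.6% of the 27025 genes with a promoter. The windows of Slc4a5, Prlr and Aqp1 did not hold TAATC. That of Slc4a5 lies inside the gene, which begins at 83219828 in GENCODE and 83207580 in RefSeq, so it is at an internal start. No window covered the first start of Slc4a5. The longer TAATCC was in 1 of the 6, Otx2 itself, and in 8.14% of genes. Otx2 had 4 windows and Prlr 3, which raises the chance of a match for those genes. Of the Otx2 windows, only the one printed above held a match. The matches are strings in a window and not sites shown to be bound.

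Ttr, at chromosome 18, 20665280 to 20674321 (mm10, GENCODE M21), held most of the summed counts of the 10 genes in 5 of the 7 libraries. Its counts, here and below in order of replicate, were 118, 15880, 63 and 443 for the 4 sgRosa libraries and 7968, 1932 and 921 for the 3 sgNr2f2 libraries. As CPM, the sgRosa libraries had 5.52, 858.7, 4.28 and 60.3 and the sgNr2f2 libraries 482.0, 108.2 and 55.7. The highest library was thus 200.6-fold above the lowest, and both lay in sgRosa. The SD of its log2 CPM over the 7 libraries was 2.90, the 9th largest of the 14412 genes, whose median SD was 0.79. In a bulk library, fewer choroid cells and less RNA per choroid cell cannot be told apart.

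The other 9 genes lie on 8 further chromosomes (mm10, GENCODE M21), so they are not neighbours of Ttr. Folr1 is at chromosome 7, 101858331 to 101870788, Kl at chromosome 5, 150952607 to 150993817, Prlr at chromosome 15, 10177238 to 10349180, and Sostdc1 at chromosome 12, 36314139 to 36318452. Kcnj13 is at chromosome 1, 87386363 to 87394729, Clic6 at chromosome 16, 92485736 to 92541243, and Otx2 at chromosome 14, 48657677 to 48673819. Aqp1, at 55336432 to 55348555, and Slc4a5, at 83219828 to 83304945, are both on chromosome 6.

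Folr1, the folate receptor that carries folate across the choroid epithelium, followed the same libraries. The sgRosa libraries had 1, 149, 3 and 0 counts of it, the sgNr2f2 libraries 115, 10 and 13. That is 8.06 CPM in sgRosa replicate 2 and 6.96 CPM in sgNr2f2 replicate 1, and at most 0.79 CPM in each of the other 5 libraries. The 0 in sgRosa replicate 4, the shallowest library, allows up to 0.41 CPM (3 counts, counting error only).

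Among the genes of hormone and growth factor signalling, Kl and Sostdc1 rested largely on the same pair of libraries and Prlr did not. Kl encodes Klotho, a co-receptor for the hormone FGF23. The sgRosa libraries had 1.498, 13.7, 0.34 and 1.22 CPM of it, the sgNr2f2 libraries 5.02, 0.67 and 0.79 CPM. Sostdc1, which encodes a secreted antagonist of BMP and Wnt signals, was measured at 0.56, 13.2, 0.54 and 3.81 CPM under sgRosa, and under sgNr2f2 at 8.17, 0.67 and 0.85 CPM. Both genes were highest in sgRosa replicate 2 and second highest in sgNr2f2 replicate 1. Prlr, the prolactin receptor gene, was measured at 14.3, 18.9, 7.27 and 31.7 CPM under sgRosa, and under sgNr2f2 at 16.6, 6.21 and 5.74 CPM. Its highest library was sgRosa replicate 4, the shallowest, where the erythroid and neuron lists also had their highest sums. The range of Prlr was 5.52-fold, against 40.3-fold for Kl and 24.4-fold for Sostdc1.

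The channels and transporters split in a like manner. Kcnj13, which encodes the inwardly rectifying potassium channel Kir7.1, was counted 11, 534, 1 and 34 times under sgRosa, and 340, 63 and 18 times under sgNr2f2. It reached 28.9 CPM in sgRosa replicate 2 and 20.6 CPM in sgNr2f2 replicate 1, and lay between 0.068 and 4.63 CPM in the others. Clic6, of the chloride intracellular channel family, was counted 16, 162, 3 and 2 times under sgRosa, and 119, 15 and 23 times under sgNr2f2. Its 8.76 CPM in sgRosa replicate 2 and 7.198 CPM in sgNr2f2 replicate 1 stood above a range of 0.20 to 1.39 CPM elsewhere. Slc4a5, a sodium bicarbonate cotransporter gene, had 0, 42, 3 and 0 counts in sgRosa and 56, 29 and 0 in sgNr2f2, so it was found in 4 libraries. Aqp1, the water channel gene, had 52, 52, 15 and 0 counts in sgRosa and 31, 0 and 4 in sgNr2f2. It lay at 2.43 CPM in sgRosa replicate 1, which had little Ttr, and at 2.81 CPM in sgRosa replicate 2, so it did not follow Ttr. Aqp1 is also made by red blood cells and some vessels. The erythroid genes summed to 31558 CPM in sgRosa replicate 4, where Aqp1 had 0 counts, and to 2297 and 1051 CPM in sgRosa replicates 1 and 2. The part of red blood cells and vessels in the Aqp1 values was not tested.

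Otx2, the only transcription factor of the 10, was low throughout. The sgRosa libraries had 6, 31, 5 and 2 counts of it, the sgNr2f2 libraries 38, 15 and 20. The level was 1.68 CPM in sgRosa replicate 2 and 2.30 CPM in sgNr2f2 replicate 1, and 0.27 to 1.21 CPM in the other libraries. Its antisense neighbour Otx2os1, which shares 154 exon bases with it, had 7 and 6 counts in those same libraries and 1 in all others together. No source used here says whether the counting used strand, so reads of the pair cannot be told apart. Kcnj13 likewise overlaps Gigyf2 on the other strand, with 623 shared exon bases. Gigyf2 lay between 23.8 and 53.1 CPM over the 7 libraries, and its part in the Kcnj13 counts was not tested.

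**Figure D1:**
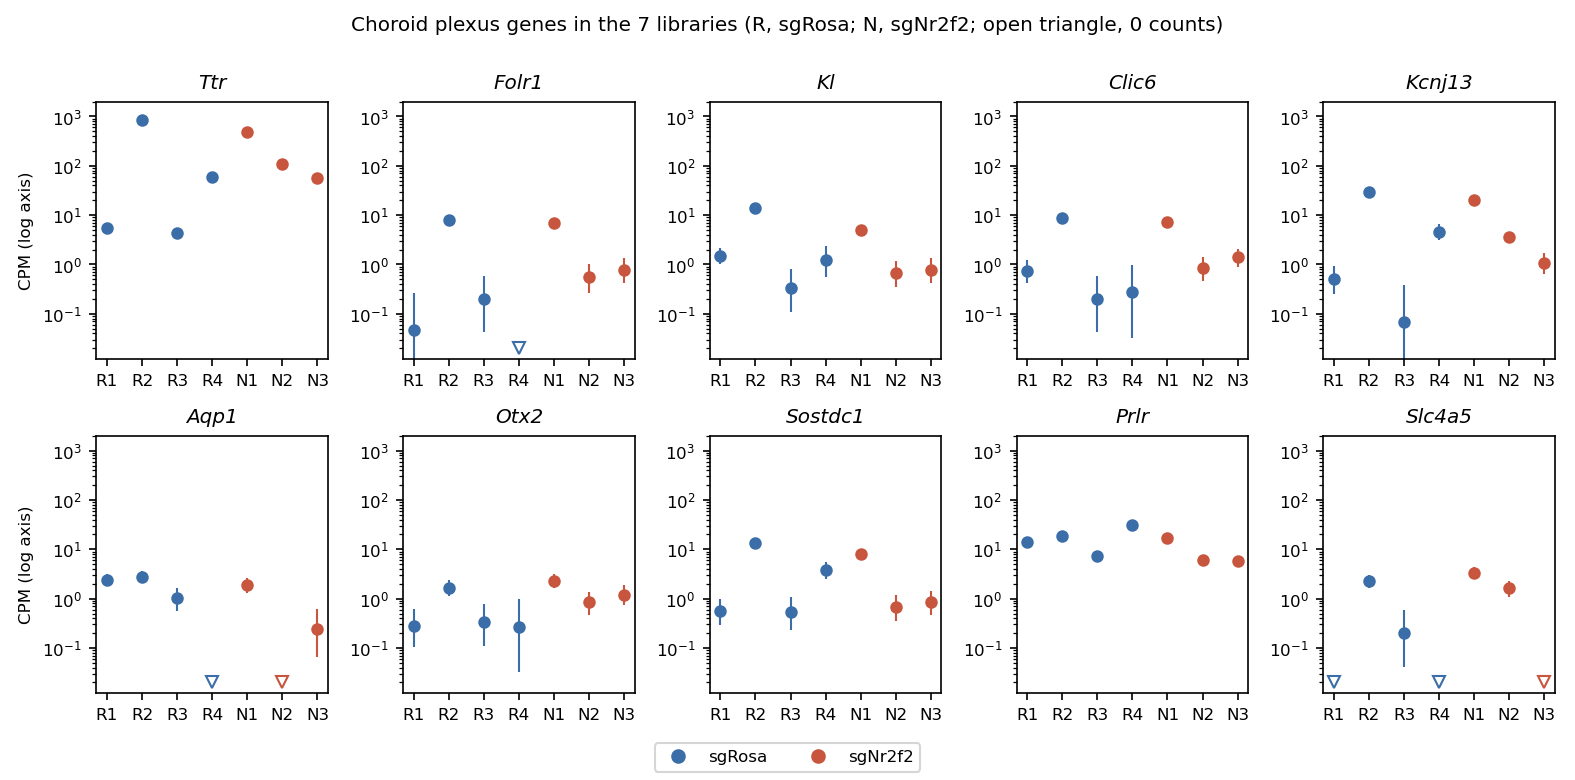
Level of each of the 10 genes in CPM (log axis) in sgRosa replicates 1 to 4 (R1 to R4, blue) and sgNr2f2 replicates 1 to 3 (N1 to N3, red); bars are exact Poisson 95% intervals of the count and open triangles mark 0 counts. R2 and N1 stand highest in 8 panels, while Prlr is highest in R4 and Aqp1 is nearly as high in R1 as in R2.

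Taken gene by gene, sgRosa replicate 2 held the highest level of 7 of the 10 genes, sgNr2f2 replicate 1 that of Otx2 and Slc4a5, and sgRosa replicate 4 that of Prlr. For 8 of the 10, these sgRosa and sgNr2f2 libraries were the first and second of the 7 in some order. The 2 exceptions were Aqp1 and Prlr. The same 2 libraries were first and second for 711 of all 14412 genes kept (4.93%). They were so for 14 of 36 genes of a wider choroid list, 5 of 10 oligodendrocyte and 4 of 11 ependymal genes. For fibroblast genes it was 2 of 14, and for erythroid, endothelial and neuron genes 0. The pair was picked as the 2 libraries with most Ttr, and Ttr is among the 8. These shares are thus a description and not a test. The pair holds 1 library of each guide. Together the 2 libraries held 87.3% of all Ttr counts, 90.7% of those of Folr1 and 87.3% of those of Kcnj13, but 53.9% of those of Aqp1 and 42.3% of those of Prlr.

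Summed over the 10 genes, the level was 25.9, 956.9, 14.5 and 102.2 CPM for the sgRosa libraries and 554.1, 123.1 and 67.8 CPM for the sgNr2f2 libraries. As a share of all counts this was 0.00121 to 0.0894% of a library. Ttr made up 87.0, 87.9 and 82.2% of the sum in sgNr2f2 replicates 1 to 3 and 89.7% in sgRosa replicate 2. It made up 59.0% in sgRosa replicate 4, and 21.3 and 29.6% in sgRosa replicates 1 and 3, where Prlr alone had more counts than Ttr. Without Ttr the sum ran from 10.2 CPM (sgRosa replicate 3) to 98.3 CPM (sgRosa replicate 2), a 9.64-fold range in place of 66.1-fold.

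Ratios within a library need no scaling between libraries, and they show how far the genes kept a fixed proportion to Ttr. Kcnj13 had 3.36 counts per 100 Ttr counts in sgRosa replicate 2 (95% exact binomial interval 3.08 to 3.67), 4.27 in sgNr2f2 replicate 1 (3.82 to 4.76) and 3.26 in sgNr2f2 replicate 2 (2.50 to 4.19). It had 1.95 in sgNr2f2 replicate 3 (1.15 to 3.11), 7.67 in sgRosa replicate 4 (5.25 to 10.9) and 9.32 in sgRosa replicate 1 (4.53 to 17.3), and the single count in sgRosa replicate 3 gave 1.59 (0.040 to 9.17). The intervals of sgRosa replicate 2 and sgNr2f2 replicate 1, the Ttr-rich pair, did not overlap, and the ratio was 1.27-fold higher in the latter.
Sostdc1 had 1.54 counts per 100 Ttr counts (1.35 to 1.75) in sgRosa replicate 2 and 1.69 (1.42 to 2.01) in sgNr2f2 replicate 1, and these intervals overlapped. Folr1 stood at 0.94 (0.79 to 1.10) and 1.44 (1.19 to 1.73) in the same libraries, Clic6 at 1.02 (0.87 to 1.19) and 1.49 (1.24 to 1.79), and Kl at 1.59 (1.40 to 1.80) and 1.04 (0.83 to 1.29). For these 3 genes the intervals did not overlap, with Folr1 and Clic6 higher per Ttr in sgNr2f2 replicate 1 and Kl lower. Otx2 and Slc4a5 were 2.44-fold and 2.66-fold higher per Ttr count in sgNr2f2 replicate 1 than in sgRosa replicate 2. Per 100 Ttr counts, Prlr went from 2.20 in sgRosa replicate 2 to 259.3 in sgRosa replicate 1 and Aqp1 from 0 in sgRosa replicate 4 and sgNr2f2 replicate 2 to 44.1 in sgRosa replicate 1. These intervals cover counting error only, and each ratio is from 1 library.

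**Figure D2:**
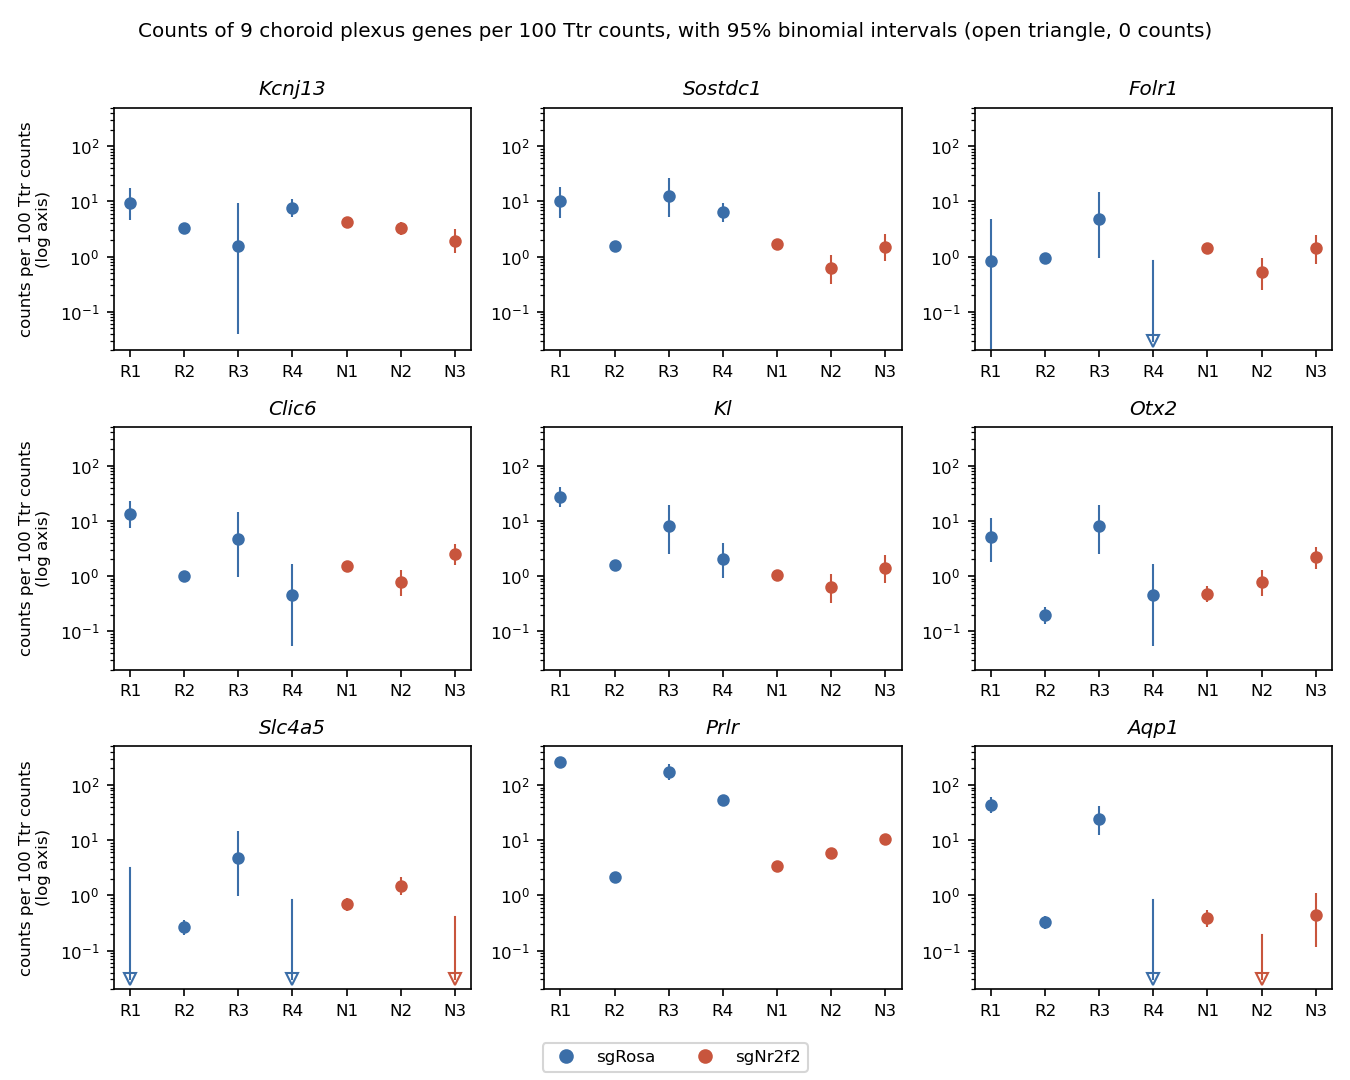
Counts of 9 genes per 100 Ttr counts (log axis) in each library, labelled R1 to R4 for sgRosa and N1 to N3 for sgNr2f2; bars are exact binomial 95% intervals and open triangles mark 0 counts. The Kcnj13 points lie between 1.59 and 9.32, while Prlr spans 2.20 to 259.3.

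Per kilobase of exon, Ttr was far the most abundant of the 10 in sgRosa replicate 2, at 724.0 CPM per kb, followed by Kcnj13 at 22.7, Sostdc1 at 7.44, Folr1 at 3.51 and Clic6 at 2.24 CPM per kb. Kl, Prlr and Aqp1 lay at 1.47, 1.23 and 1.07 CPM per kb, and Otx2 and Slc4a5 lowest at 0.40 and 0.39. sgNr2f2 replicate 1 gave the same first 5 genes in the same order, with 406.4 CPM per kb for Ttr, 16.2 for Kcnj13, 4.58 for Sostdc1, 3.03 for Folr1 and 1.84 for Clic6. Exon lengths are unions over all GENCODE transcripts of a gene and may be longer than the transcripts the tissue makes.

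Of the 7 listed genes that could be ranked by likeness to Ttr over the libraries, 5 were among the 20 genes nearest to it. Likeness was measured as the root mean square difference between centred log2 CPM profiles, over 12790 genes with a mean of at least 20 counts. Kcnj13 ranked first, with a difference of 0.74 against a median of 2.78 over all genes. Folr1, Sostdc1, Clic6 and Kl ranked 4th, 5th, 6th and 8th, whereas Prlr ranked 1175th and Aqp1 11972nd. Otx2 and Slc4a5 had too few counts to be ranked there, and among all 14411 genes besides Ttr they were 16th and 12th.

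Of the 8 nearest genes with an official-style symbol outside the list, 4 are on a wider list of choroid epithelium genes, of which 25 were ranked. These were Calml4 (a calmodulin-like gene), Igfbp2 (an IGF-binding protein), Car12 (a carbonic anhydrase) and Kcne2 (a potassium channel subunit), with differences of 1.38, 1.82, 1.83 and 1.95. Only these 4 of the 25 were among the 100 genes nearest to Ttr, so most of the wider list did not follow it closely. Igfbp2 reached 28.4 CPM in sgRosa replicate 2 and 15.6 CPM in sgNr2f2 replicate 1 and lay at 1.93 to 2.92 CPM in the others. Car12 reached 10.9 and 9.25 CPM in that pair and at most 1.27 CPM elsewhere. The other 4 of the 8 nearest were A2m, Rsph1, Ppp1r3g and Ttll3, with differences of 1.71 to 2.00. Rsph1, a gene of the ciliary radial spoke that ependymal cells express, was at 5.57 CPM in sgRosa replicate 2 and 4.08 CPM in sgRosa replicate 4, but at 1.81 CPM in sgNr2f2 replicate 1. The ranking is a description over 7 libraries.

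**Figure D3:**
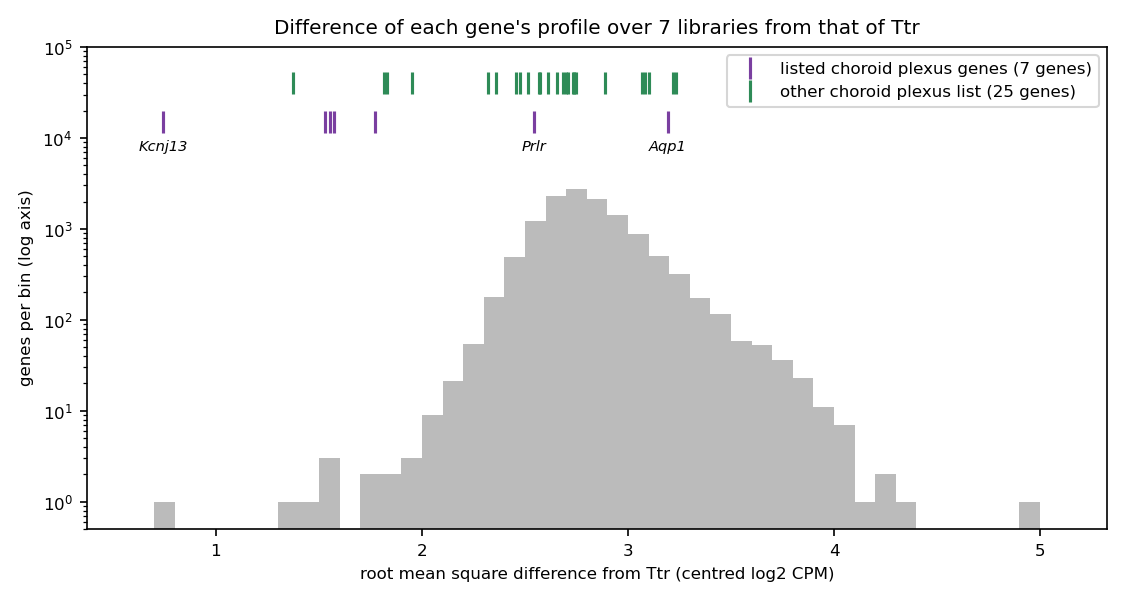
Number of genes (log axis) by the root mean square difference of their centred log2 CPM profile from that of Ttr over the 7 libraries, with ticks for the 7 listed choroid plexus genes and 25 genes of the wider choroid list that had a mean of at least 20 counts. Kcnj13 lies farthest left at 0.74, and Prlr and Aqp1 lie within the main body of genes.

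The wider choroid list held 37 genes, of which 36 were in the table and 27 passed the low-count filter. Its 6 most abundant genes were Enpp2, Atp1b1, Slc31a1, Slc12a2, Car14 and Slc4a2, which many brain cells also express. Atp1b1, a sodium pump subunit of neurons too, ran from 240.1 to 968.9 CPM and was highest in sgRosa replicate 4. Enpp2, the autotaxin gene that oligodendrocytes also make, was at 1015 and 1039 CPM in sgRosa replicate 2 and sgNr2f2 replicate 1 and at 36.3 to 413.0 CPM in the rest. Of the 27 genes kept, 11 were higher and 16 lower in sgNr2f2, with a median log2 fold change of -0.28 against -0.11 over all genes, and 0 passed edgeR's adjusted test.

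The pair of Ttr-rich libraries differed in the markers of neighbouring tissue. The 11 ependymal genes, whose cells line the ventricles, summed to 56.3 CPM in sgRosa replicate 2, and to 9.62 CPM in sgNr2f2 replicate 1. In the remaining libraries they summed to 1.29 to 15.2 CPM, highest in sgRosa replicate 4. The 14 meningeal and stromal fibroblast genes summed to 161.5 CPM in sgRosa replicate 2, to 43.7 to 59.2 CPM in the other sgRosa libraries and to 27.4 to 33.4 CPM in sgNr2f2. Much of this sum was Mgp, at 93.5 CPM in sgRosa replicate 2 and 20.3, 31.5 and 22.2 CPM in sgRosa replicates 1, 3 and 4. In sgNr2f2 Mgp was at 8.04, 14.2 and 11.3 CPM, so the gap between the groups in the sum rested largely on this gene. All 14 fibroblast genes were detected in sgRosa replicate 2, and 4 of the 14 were at 0 in sgNr2f2 replicate 1. For 10 of the 11 ependymal and 10 of the 14 fibroblast genes the highest library was sgRosa replicate 2, and for none was it sgNr2f2 replicate 1. The junction genes Cdh1, Cldn2 and Cldn1 of the wider choroid list were chosen here after their values were seen. Cdh1 had 385 counts in sgRosa replicate 2 and 0 in sgNr2f2 replicate 1. In the same order, Cldn2 had 85 and 154 counts and Cldn1 36 and 34, so Cldn1 barely differed between them. The part of ependymal and fibroblast tissue in the choroid values was not tested.

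**Figure D4:**
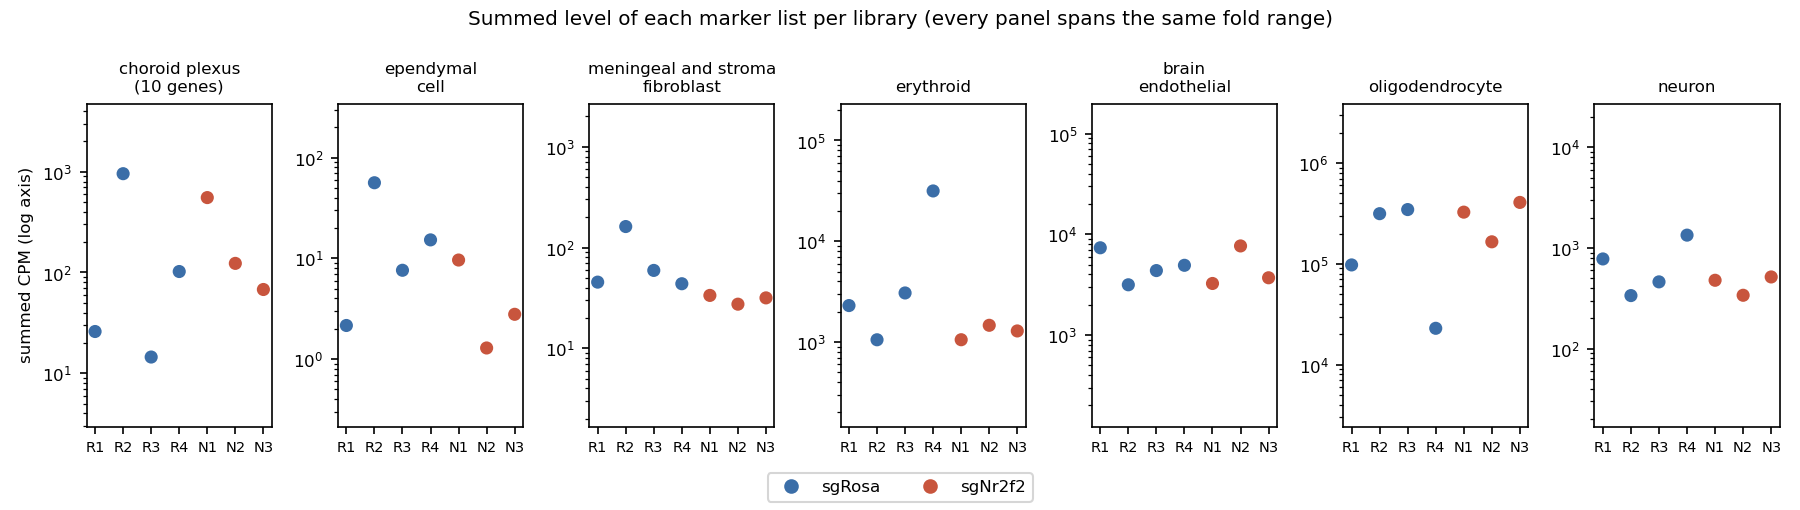
Summed CPM (log axis, each panel spanning the same fold range) of the 10 choroid plexus genes and of 6 marker lists in the libraries R1 to R4 (sgRosa, blue) and N1 to N3 (sgNr2f2, red). R2 is highest for the choroid, ependymal and fibroblast lists, N1 is second for the choroid list only, and R4 is highest for erythroid and neuron genes.

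The comparison of sgNr2f2 with sgRosa asks whether choroid carry-over differed between the guides. No difference was detected for any of the 10 genes: 0 passed edgeR's quasi-likelihood test at an adjusted p of 0.05, against 0% of the 14412 genes. At an unadjusted p under 0.05 edgeR called 0 of the 10, with 2.18% of all genes higher and 2.82% lower, and limma-voom called 0 of the 10 before and after adjustment. DESeq2 gave no p for Folr1 and Clic6 and called 0 of the other 8, before and after adjustment. Over the 14020 genes it gave a p for, DESeq2 called 0.0499% after adjustment, and before it 3.06% higher and 4.74% lower, while limma-voom called 0% after adjustment, and before it 2.41% higher and 2.12% lower. The groups overlapped for all 10 genes, whereas 4.41% of all genes lay wholly higher and 3.9% wholly lower in sgNr2f2. Of the 10 genes, 4 had a positive and 6 a negative log2 fold change, with a median of -0.07 against -0.11 over all genes. The spread was too wide to show that the groups were alike.

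The mean level of Ttr was 232.2 ± 418.5 CPM under sgRosa (SD, n = 4) and 215.3 ± 232.5 CPM under sgNr2f2 (SD, n = 3). The fitted log2 fold change, -0.11, had an SE of 1.51 (edgeR adjusted p = 0.996). Leaving out the highest library of each group gave means of 23.4 CPM for sgRosa and 81.9 CPM for sgNr2f2. Kcnj13 lay at 8.52 ± 13.7 and 8.39 ± 10.6 CPM (log2 fold change -0.03, SE 1.43). In both genes the SD was larger than the mean in each group. The log2 fold changes of Folr1 and Clic6 were 0.38 (SE 1.54) and 0.31 (SE 1.22), and those of Kl and Sostdc1 were -0.97 (SE 1.17) and -0.50 (SE 1.19). Aqp1 and Slc4a5 stood at -1.18 (SE 1.38) and 1.36 (SE 1.58). Otx2 had means of 0.64 ± 0.69 and 1.45 ± 0.76 CPM, a log2 fold change of 1.13 (SE 0.88, edgeR adjusted p = 0.878). Prlr had the smallest p of the 10, with means of 18.0 ± 10.3 and 9.53 ± 6.16 CPM and a log2 fold change of -0.92 (SE 0.59, edgeR adjusted p = 0.868). Without sgRosa replicate 4 that of Prlr was -0.50, and without sgNr2f2 replicate 1 it was -1.59 (SE 0.65, edgeR unadjusted p = 0.0373, adjusted p = 0.999). In the latter fit Prlr was the 1 gene of the 10 with an unadjusted p under 0.05, against 2.26% of all genes on the lower side, and 0 of the 10 were on the higher side, against 1.86%.

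Leaving out 1 library changed the sign of the log2 fold change for 6 of the 10 genes. Without sgRosa replicate 2, Ttr had a log2 fold change of 3.21, Folr1 of 4.81, Clic6 of 2.86, Kcnj13 of 2.36, Kl of 1.08 and Sostdc1 of 1.03. In that fit 4 of 9 genes measured, Ttr, Folr1, Clic6 and Otx2, had an unadjusted p under 0.05 on the higher side, against 1.35% of all genes. On the lower side were 0 of 9, against 3.63%, and 0 passed after adjustment (edgeR adjusted p = 0.852 for each). The fit left out the sgRosa library where these 4 genes were highest and kept sgNr2f2 replicate 1, their highest sgNr2f2 library. An upward shift was thus built in, and the 4 are not separate findings. Without sgNr2f2 replicate 1 the 6 genes whose sign changed moved the other way. Ttr went to -1.46, Folr1 to -1.62, Clic6 to -1.16, Kcnj13 to -1.84, Kl to -2.50 and Sostdc1 to -2.55. In the fits that left out 1 library and measured them, Otx2 and Slc4a5 were positive and Aqp1 and Prlr negative throughout, but their sizes moved. Aqp1 was at -3.68, Slc4a5 at 0.39 and Otx2 at 0.64 without sgNr2f2 replicate 1, Otx2 was at 2.25 without sgRosa replicate 2, and Aqp1 was at -0.59 without sgNr2f2 replicate 2. Without both libraries, an alternative chosen after seeing the data, Ttr was at 1.85 (SE 1.06) and Kcnj13 at 0.50. Folr1 was at 2.82 and Aqp1 at -3.20, and of the 9 genes measured 5 were higher and 4 lower. In that fit edgeR called 0 of the 9 at an unadjusted p under 0.05, against 2.95% of all genes in both directions. After adjustment it called 0 of the 9 and 0% of all genes.

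**Figure D5:**
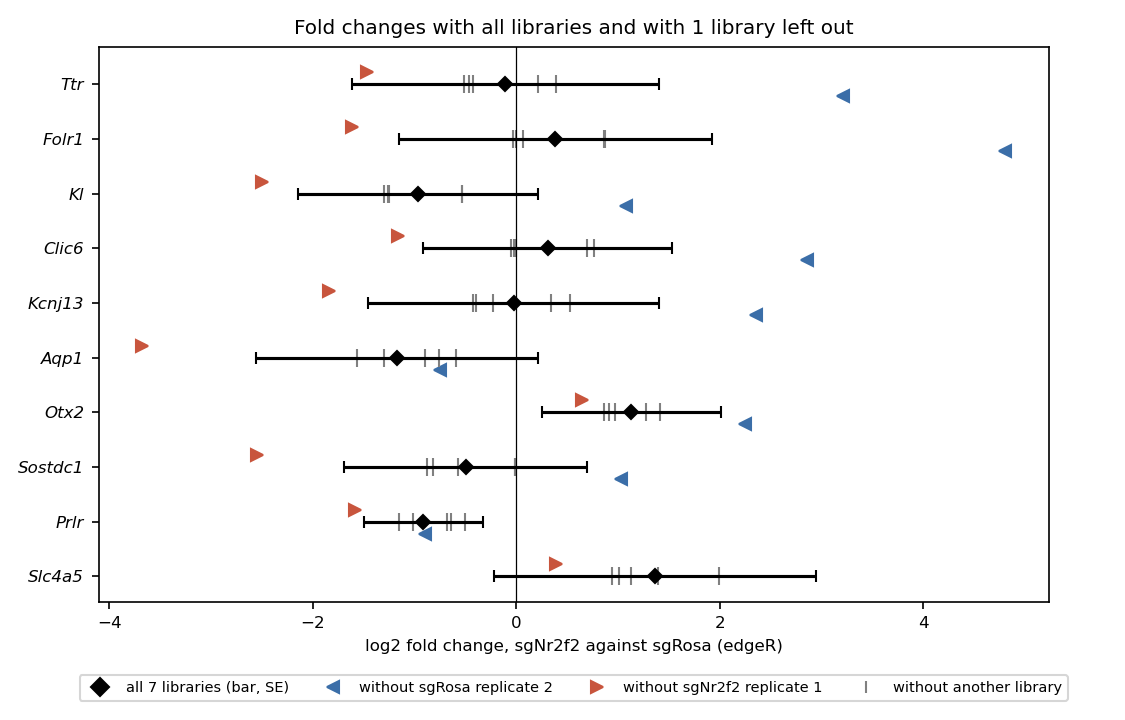
Log2 fold change of each of the 10 genes, sgNr2f2 against sgRosa, from edgeR with all 7 libraries (diamonds, bars are SE) and with 1 library left out. Leaving out sgRosa replicate 2 puts Ttr at 3.21 and leaving out sgNr2f2 replicate 1 puts it at -1.46; Slc4a5 has no value in the former fit because too few counts were left.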

How the data were processed

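RNA-seq was made from 5 ng of total RNA per library, in 4 sgRosa and 3 sgNr2f2 libraries. The values deposited by the authors are unnormalized read counts by symbol; 7 files of 1 library each repeat the series table. Per the submitters' processing notes, the build was mm10 and the tools included STAR 2.7.5c, with featureCounts 2.0.1, fastp 0.23.2 and edgeR 3.42.4. The annotation, strand setting and multi-mapping rule were not given in the sources used here. Depth was 6266897 to 20928677 counts, so 3 counts equal 0.14 to 0.41 CPM. PCR reads without molecular identifiers are not independent, so intervals and floors cover counting error only.

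Groups were compared with edgeR 4.0.16 (R 4.3.3), by its quasi-likelihood test with TMM factors, edgeR's low-count filter, the group as only term and Benjamini-Hochberg adjustment over 14412 genes. It was tested on simulated data, whose spread was set in advance and not taken from these 10 genes. Each SE of an edgeR log2 fold change was derived as its absolute value over the square root of the test's F statistic. CPM uses TMM-scaled sizes, and log2 CPM has a prior count of 2. The alternatives were 3 other scalings, no filter, DESeq2 1.42.0, limma-voom (limma 3.58.1), a replicate block and leaving out each library. The named genes are the 10 members, the 8 official-style symbols nearest to Ttr, the 6 most abundant genes of the wider choroid list and list genes set beside a member. The members and lists were chosen with earlier results of these data known.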

Additional observations from a re-analysis of the deposited data

Results flagged for a closer look

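In a group of 4 libraries, the gap from a value to the nearest other library was taken as a share of the group's range. A value was singled out when this share was above Dixon's 95% critical value. For normally distributed values chance does this in about 1 in 20 groups. The CPM values used were not log-transformed and spanned up to 200.6-fold (Ttr), so that rate need not hold here. Of 12 quantities in sgRosa (the 10 genes and 2 sums), 8 were singled out, and in each it was sgRosa replicate 2 that stood high. They share 1 library and are not 8 separate findings. The values there were 858.7 CPM for Ttr (next 60.3), 8.06 CPM for Folr1 (next 0.20), 13.7 CPM for Kl (next 1.498) and 8.76 CPM for Clic6 (next 0.75). Kcnj13 was at 28.9 CPM (next 4.63), Otx2 at 1.68 CPM (next 0.34), Slc4a5 at 2.27 CPM (next 0.20) and the sum of the 10 genes at 956.9 CPM (next 102.2). Sostdc1, Aqp1, Prlr and the sum without Ttr were not singled out. The sgNr2f2 group has 3 libraries and was not examined in this way.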

How the results depend on the processing

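None of the 10 genes passed the adjusted threshold in any fit that gave it a p (DESeq2 gave none for Folr1 and Clic6), and over all genes only DESeq2 called any (7, against 0 by edgeR). All 10 kept their direction under the 3 other scalings, without a low-count filter and with DESeq2. The median log2 fold change of all genes was -0.11, and -0.33 with library size alone. limma-voom reversed Ttr (2.10) and Kcnj13 (1.47). With the replicate block, Ttr (3.18), Kcnj13 (2.10) and Sostdc1 (0.27) reversed, and 913 genes had an unadjusted p under 0.05 in place of 721. Deviations of same-numbered libraries from their group means correlated at r = -0.20, -0.26 and 0.09. Not every library correlated best with its own number. The labels do not say whether a number marks a shared animal, litter or day, and these correlations cannot settle it. Over the fits that left out 1 library, the log2 fold change ran from -1.46 to 3.21 for Ttr, -1.62 to 4.81 for Folr1, -2.50 to 1.08 for Kl, -1.16 to 2.86 for Clic6, -1.84 to 2.36 for Kcnj13 and -2.55 to 1.03 for Sostdc1. Each of these ranges ends at the fits without sgNr2f2 replicate 1 and without sgRosa replicate 2. It ran from -3.68 to -0.59 for Aqp1, 0.64 to 2.25 for Otx2, -1.59 to -0.50 for Prlr and 0.39 to 1.99 for Slc4a5. The log2 ratio of the groups' summed level ran from -1.49 to 2.38 (-0.15 with all libraries) and, without Ttr, from -1.64 to 0.45 (-0.37). Without both of those libraries, Ttr (1.85) and Kcnj13 (0.50) reversed, and the summed ratio was 1.03, or -0.81 without Ttr. The cause of the changes by tool and by block was not tested. Low counts limit the precision of Slc4a5, at 0 in 3 libraries, Aqp1, at 0 in 2, and Folr1, at 0 in 1. They also limit that of Otx2, which had the fewest counts of the 10 genes, 117 over all libraries.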
